A study of Mus musculus with 10 samples.

Results

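The comparison described here set Ly6G+ cells from the infarcted heart (MI, n = 3 libraries) against Ly6G+ cells from blood (Blood, n = 2 libraries), which are 5 of the 10 RNA-seq libraries of the series. All 5 came from male C57Bl/6J mice, 12 to 16 weeks old, in which myocardial infarction was induced by ligation of the left coronary artery (LCA), and all were collected at day 3 without any injection of mesenchymal stromal cells (MSC). The other libraries, from infarcted mice given MSC, also entered the gene filter and the estimate of spread behind the calls. For MI, the left ventricle below the ligature was digested at 37 °C with Liberase and DNase, and red cells were lysed. Blood was drawn by cardiac puncture before the heart was taken, and in both groups Ly6G+ cells were held on a magnetic column with anti-Ly6G microbeads. Both groups therefore share the infarct, the day and the selection, and only the MI cells are known from the methods to have passed through a tissue digestion. No blood or heart of an uninjured mouse is among these libraries, and no label pairs a heart library with a blood library of the same mouse. The members were taken by the tissue and treatment given in the labels, and the question is how Ly6G+ cells selected from the infarct differ from those selected from blood.

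Neutrophils are made in bone marrow and fill their granules with antimicrobial proteins before release. In blood they carry the chemokine receptor Cxcr2, which serves recruitment and is lost from the surface as they enter tissue. In an infarct they clear debris and release cytokines and proteases, and macrophages later ingest them. A magnetic column enriches for Ly6G+ cells but can also hold other cells, fragments and platelets that stick to them.

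The recovered reads on genes were 148594 in MI 13, 1433926 in MI 19, 2653258 in MI 20, 268860 in Blood 21 and 2957308 in Blood 22. Expression is given as normalized count, the reads of a gene divided by the size factor of its library. A single read was worth 8.40 normalized counts in MI 13 and 7.07 in Blood 21, so low values in these 2 libraries rest on few reads. In each run of values below, MI libraries stand in the order 13, 19 and 20 and Blood libraries in the order 21 and 22. Log2 fold changes are MI minus Blood on log2(normalized count + 2) ± SE. Adjusted p-values are from limma fitted to all 10 libraries, over the 11549 genes that averaged 10 normalized counts or more across them. A gene was called where the adjusted p was under 0.05 and the absolute log2 fold change was at least 0.5.

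Libraries MI 13, Blood 21 and Blood 22 each stood apart. Genes of olfactory and vomeronasal receptors, which neither neutrophils nor heart cells are known for, summed to 13808, 2850.0 and 1903 in MI and 367 and 266 in Blood. These sums were highest in MI 13, and every MI library was above both Blood libraries. Of 902 such genes in the table, 862 had no read in Blood 21 and 611 had none in Blood 22. The 23 that were tested passed the filter mainly through heart libraries, so the direction of their calls was largely set by it. Of the 23, 14 (60.9%) were called higher in MI, with a median of 2.78. For this reason that share cannot be set against the 21.2% of all tested genes. Without MI 13, Blood 21 or Blood 22, 7, 2 and 4 were called higher. Rises of genes with few reads are to be read beside this. Platelet genes summed to 572, 704 and 648 in MI and 35002 and 1324 in Blood, which set Blood 21 apart, and erythroid genes summed to 353, 321 and 188 in MI and 572 and 10023 in Blood, which set Blood 22 apart. Sums run over all members of a list in the table, tested or not. Their part in the results was not tested, and calls that were lost without 1 of these libraries are marked below. As these are bulk samples, fewer cells of a type and less RNA per cell cannot be told apart. The labelled cell type was checked against its markers. S100a8 was 605, 1948 and 1137 in MI and 12061 and 7659 in Blood, Csf3r was 555, 1130.4 and 1216 in MI and 5695 and 9547 in Blood and Cxcr2 was 210.1, 881 and 727 in MI and 4847 and 4862 in Blood, so neutrophil genes were present in every library. Circulating neutrophil genes summed to 5118, 14866 and 12745 in MI and 63666 and 60481 in Blood. Macrophage genes summed to 11724, 29542 and 28633 in MI and 32925 and 23116 in Blood. The macrophage sum was thus above the neutrophil sum in each MI library and below it in both Blood libraries. Ly6g, the gene of the selected surface protein, was 16.8, 26.9 and 18 in MI and 198 and 645 in Blood, and MI 13 held 2 reads of it. The 33 cardiomyocyte genes in the table summed to 33634, 32775 and 12113 in MI and 254 and 253 in Blood, so transcripts of heart muscle were present in all MI libraries.

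Across all tested genes, 2452 were higher and 1556 lower in MI, with a median log2 fold change of 0.15. This is a background of 21.2% called higher and 13.5% called lower, against which the lists below are read. With the 5 libraries fitted alone, limma called 1091 genes higher and 609 lower. The groups did not overlap for 2442 of the higher and 1547 of the lower genes, where 31.6% of all tested genes had MI values above both Blood values and 23.6% had them below. Of the higher genes, 612 had at most 3 reads in each Blood library, and 5 of the lower genes had at most 3 in each MI library. Leukocyte and heart-cell genes moved apart. Among 242 tested genes of the leukocyte lists, 26 were higher and 85 lower, with a median of -0.68, while among 103 genes of the heart-cell lists 80 were higher and 4 lower, with a median of 4.51. Heart-cell genes with few reads in Blood could pass the filter mainly through heart libraries, which favoured higher calls.

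**Figure D1:**
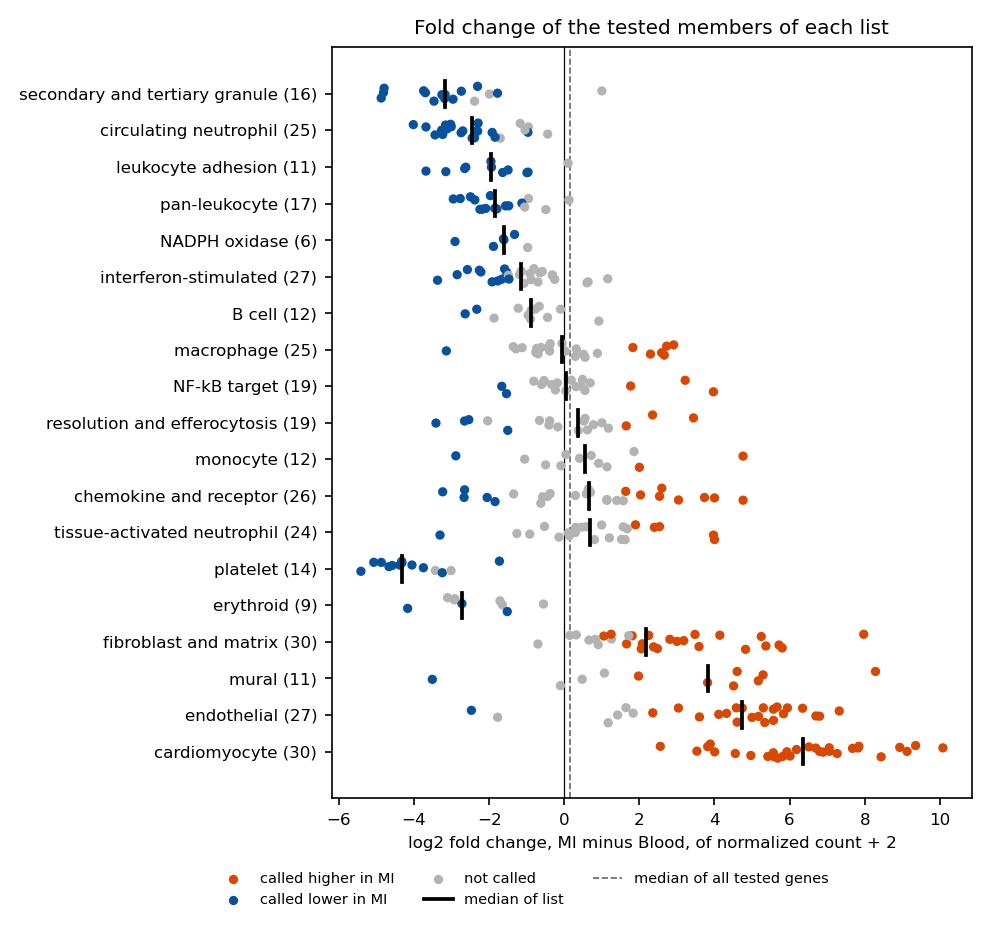
Log2 fold change of normalized count + 2, MI minus Blood, for each tested member of 19 gene lists (number tested in brackets), 1 point per gene. Orange points were called higher in MI, blue points lower and grey points neither, the black bar is the median of the list and the dashed line the median of all tested genes. Granule and circulating neutrophil genes lie on the left with medians of -3.18 and -2.45, and all 30 cardiomyocyte genes lie on the right.

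Genes for the proteins of secondary and tertiary neutrophil granules had the lowest median of the leukocyte lists. Of 16 tested genes, 13 were lower and 0 higher, and the median log2 fold change was -3.18. Retnlg, a resistin-like protein of neutrophils, was 25.2, 296 and 222 in MI and 2042 and 5772 in Blood (log2 fold change -4.81 ± 1.03, adjusted p = 0.00544), and its mean in Blood was 21.6 times that in MI. Mmp8, the neutrophil collagenase, was 92.4, 335 and 279 in MI and 1519 and 4783 in Blood (log2 fold change -3.70 ± 0.67, adjusted p = 0.00251). Both genes were higher in each Blood library than in any MI library. Mmp9, gelatinase B, was 134, 402 and 496 in MI and 1505 and 3668 in Blood (log2 fold change -2.96 ± 0.66, adjusted p = 0.00657). Pglyrp1, which binds bacterial peptidoglycan, was 33.6, 153 and 102 in MI and 834 and 1487 in Blood (log2 fold change -3.75 ± 0.63, adjusted p = 0.00169). Wfdc21 was 8.40, 18.3 and 10.8 in MI and 141 and 1163 in Blood (log2 fold change -4.87 ± 0.77, adjusted p = 0.00113). For all 3 genes the groups were again apart, and Blood 22 was the highest library. Lcn2, the siderophore-binding lipocalin 2, was 50.4, 175 and 115 in MI and 593 and 2171 in Blood and fell by 3.47 on the log2 scale, a call that was lost without Blood 22.

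The granule genes were not uniform. Ltf (lactoferrin) was 42.0, 33.6 and 11.3 in MI and 7.07 and 1321 in Blood and Camp (cathelicidin) was 8.40, 13.5 and 5.15 in MI and 7.07 and 330.1 in Blood. Blood 21 held 1 read of each, so the Blood libraries disagreed and neither gene was called (adjusted p = 0.334 and 0.165). Ngp, 0, 72.1 and 21.1 in MI and 84.8 and 2022 in Blood, was called lower, but not without MI 13 or without Blood 22. Chil3, a chitinase-like protein, was 294, 779.5 and 527 in MI and 91.8 and 654 in Blood and was not called (log2 fold change 1.0 ± 0.79, adjusted p = 0.341). Without Blood 21 the list had 15 lower genes and a median of -4.44, and without Blood 22 it had 7 and -2.34. Genes of primary granules, which are transcribed in bone marrow precursors, were nearly absent from both groups: of 6 in the table only Prtn3 passed the filter, and the list summed to 84.0, 29.8 and 13.9 in MI and 21.2 and 21.4 in Blood.

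Genes that mark mature circulating neutrophils were lower in MI in 20 of 25 tested cases and higher in 0, with a median of -2.45. The 2 Blood libraries agreed closely on Cxcr2, the receptor for neutrophil-attracting CXC chemokines (given above, log2 fold change -3.24 ± 0.77, adjusted p = 0.00913). Csf3r, the receptor for granulocyte colony-stimulating factor, fell by 3.01 on the log2 scale (adjusted p = 0.00541) and S100a8, a subunit of calprotectin, by 3.12 (adjusted p = 0.00706). Its partner S100a9 was 807, 2776 and 1748 in MI and 16229 and 10655 in Blood and its call (adjusted p = 0.0106) was lost without Blood 21. Stfa2l1, a stefin protease inhibitor, was 75.6, 259 and 183 in MI and 1823 and 1558 in Blood (log2 fold change -3.44 ± 0.76, adjusted p = 0.00652). Fpr1, the receptor for formyl peptides, was 33.6, 186 and 157 in MI and 756 and 1101 in Blood (log2 fold change -3.16 ± 0.73, adjusted p = 0.00772). Ly6g itself fell by 4.02 on the log2 scale (adjusted p = 0.000356), with a Blood mean 20.5 times that of MI, although the same protein had been used to select the cells.

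The other 5 tested genes of this list were not called. Of all 25 tested, 24 had every MI value below both Blood values. Trem1, a receptor that amplifies inflammatory signals, was 286, 623 and 733 in MI and 714 and 667 in Blood (log2 fold change -0.44 ± 0.60, adjusted p = 0.593), so the groups overlapped. Il1r2, the decoy receptor for interleukin-1, was 134, 407 and 465 in MI and 926 and 1003 in Blood. Each MI library was below both Blood libraries for Il1r2, but the gene missed the threshold (adjusted p = 0.0704). The list kept 14 lower genes without MI 13, 14 without Blood 21 and 12 without Blood 22.

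**Figure D2:**
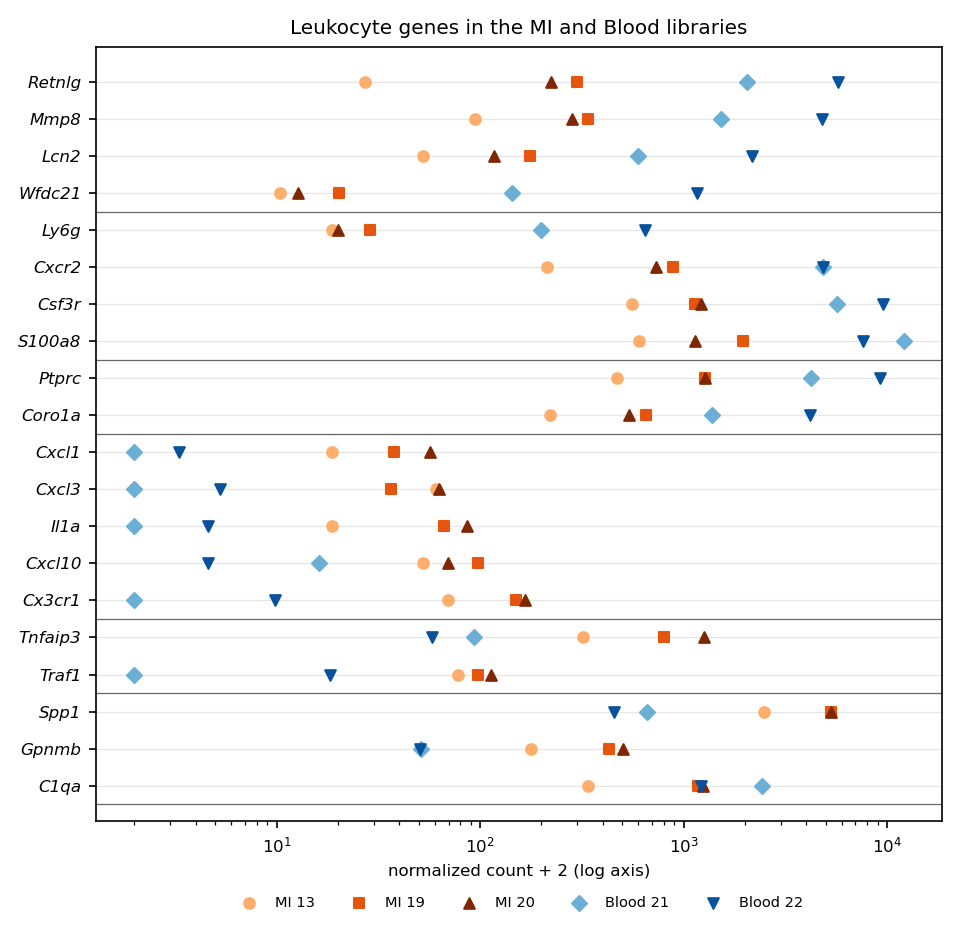
Normalized count + 2 on a log axis for 20 leukocyte genes in the 3 MI libraries (orange and brown) and 2 Blood libraries (blue), 1 symbol per library, in blocks of granule, circulating neutrophil, pan-leukocyte, chemokine and cytokine, NF-kB feedback and macrophage genes. In the upper 3 blocks each Blood symbol lies to the right of all MI symbols, in the next 2 blocks and for Spp1 and Gpnmb it lies to the left, and for C1qa the groups overlap. The genes were chosen by hand, and all but C1qa were called, so the separation describes these genes and not their lists. The groups overlapped for the granule genes Ltf, Camp and Chil3, which are not shown. Of 19 NF-kB genes, 6 had all MI values above Blood and 6 had all below.

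Genes for adhesion and for the respiratory burst followed the same direction. Of 11 adhesion genes, 10 were lower and 0 higher (median -1.94). Jaml, a junctional adhesion molecule used in transmigration, was 33.6, 92.3 and 65.9 in MI and 367 and 798 in Blood (log2 fold change -3.15 ± 0.56, adjusted p = 0.00226). Selplg, the rolling ligand PSGL-1, was 319, 879.5 and 702 in MI and 3688 and 3507 in Blood (log2 fold change -2.62 ± 0.51, adjusted p = 0.00340). Itgal, the alpha chain of LFA-1, was 84.0, 177 and 156 in MI and 495 and 1436 in Blood (log2 fold change -2.65 ± 0.53, adjusted p = 0.00415). Blood values of these genes were all above those of MI. Itgam, which encodes CD11b, differed less, at 261, 484 and 482 in MI and 777 and 793 in Blood, and its call (log2 fold change -0.99) was lost by edgeR and without MI 13, Blood 21 or Blood 22, and Itgax was 109, 97.1 and 108 in MI and 56.5 and 167 in Blood and was not called.

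Of the 6 subunits of the phagocyte NADPH oxidase, 5 were lower and 0 higher (median -1.61). Rac2, the small GTPase of the complex, was 118, 305 and 312 in MI and 1258 and 2286 in Blood (log2 fold change -2.91 ± 0.47, adjusted p = 0.00131). Ncf4, the p40phox subunit, was 159.7, 176 and 186 in MI and 396 and 729.6 in Blood (log2 fold change -1.62 ± 0.33, adjusted p = 0.00462). The catalytic subunit Cybb was 143, 629 and 569.8 in MI and 608 and 884 in Blood and was not called (adjusted p = 0.210).

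Genes shared by all leukocytes were lower too, in 13 of 17 tested cases and higher in 0, with a median of -1.85 and sums of 3715, 10610.0 and 10159 in MI and 22560.0 and 41501 in Blood. Ptprc, which encodes CD45, was 471, 1272 and 1280.0 in MI and 4232 and 9254 in Blood (log2 fold change -2.77 ± 0.60, adjusted p = 0.00586). Coro1a, an actin-binding protein of leukocytes, was 219, 651 and 538 in MI and 1385 and 4191 in Blood (log2 fold change -2.50 ± 0.55, adjusted p = 0.00649). Cd48 was 50.4, 205 and 181 in MI and 127 and 101 in Blood and was not called. The lower leukocyte signal in MI therefore covered general leukocyte genes as well as neutrophil genes, beside summed heart-cell lists of 48989, 47391 and 28628 in MI and 9227 and 3334 in Blood.

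To see which genes were low relative to other leukocyte genes, the values were also scaled so that the mean log2 value of the 17 pan-leukocyte genes was equal in all libraries. This scaling added the same 1.72 to the log2 fold change of every tested gene and so moved the median of all genes from 0.15 to 1.87. It leaves the order of genes as it was, and a gene that is still lower on it fell further than the mean of the pan-leukocyte genes. It called 69.3% of tested genes higher and 1.13% lower, or 8005 and 130 genes, so that 98.4% of calls were higher in place of 61.2%. Scaling to library size gave 3778 higher and 812 lower genes, 82.3% of calls higher, and moved the median to 0.63. Of the 1556 lower genes, 130 stayed lower, 1402 were no longer called and 24 were called higher.

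Granule and circulating neutrophil genes were among those that stayed low. Under the pan-leukocyte scaling 9 of 16 secondary and tertiary granule genes and 10 of 25 circulating neutrophil genes were still lower, against 1.13% of all tested genes, and these lists had medians of -1.46 and -0.73. Retnlg was at -3.09, Ly6g at -2.30, Cxcr2 at -1.51 and S100a8 at -1.40 on the log2 scale. For the adhesion list the median was -0.22 with 4 of 11 still lower, and for the NADPH oxidase it was 0.11 with 1 of 6, namely Rac2. Of the 85 lower leukocyte genes, 45 kept the call by edgeR and without MI 13, Blood 21 or Blood 22 in turn, and 25 of these kept it also under the pan-leukocyte scaling. Over all genes, 638 of the 1556 lower genes kept the call in the former settings and 114 also under the scaling. The 25 include Ly6g, Retnlg, Wfdc21, Mmp8, Mmp9, Pglyrp1, Lrg1, Cxcr2, Csf3r, S100a8, Fpr1, Slpi, Stfa2l1, Anxa1, Ltc4s and Rac2.

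**Figure D3:**
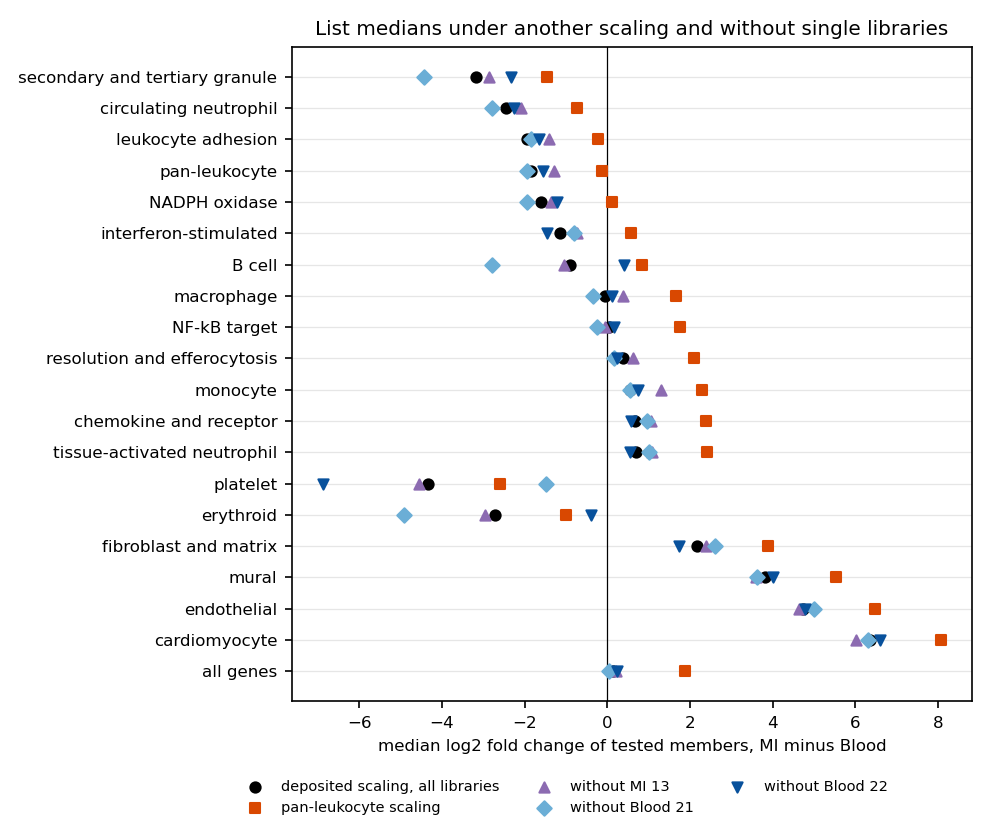
Median log2 fold change, MI minus Blood, of the tested members of 19 gene lists and of all tested genes, with the deposited scaling (black), with pan-leukocyte scaling (orange) and without MI 13, Blood 21 or Blood 22. Pan-leukocyte scaling moved every median to the right by the same 1.72, and the granule, circulating neutrophil, adhesion, pan-leukocyte, platelet and erythroid medians stayed below 0. The platelet and erythroid medians moved most when Blood 21 or Blood 22 was left out.

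Chemokines, cytokines and their receptors went both ways. Of 26 tested genes, 8 were higher and 5 lower, with a median of 0.67. Cxcl1, a ligand of Cxcr2, was 16.8, 35.6 and 54.6 in MI and 0 and 1.30 in Blood (log2 fold change 3.73 ± 0.53, adjusted p = 0.000646). Cxcl3, another ligand of Cxcr2, was 58.8, 34.6 and 60.7 in MI and 0 and 3.25 in Blood (log2 fold change 4.0 ± 0.52, adjusted p = 0.000353). Neither gene had more than 5 reads in a Blood library, and their fitted fold changes depend on the pseudocount. Cxcl2, the third of these neighbouring ligands, was 698, 1437 and 2001 in MI and 678 and 264 in Blood and was not called (log2 fold change 1.57 ± 0.74, adjusted p = 0.117). Each MI library was above both Blood libraries, but Blood 21 nearly reached MI 13.

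The promoters of these 3 chemokine genes are shown because they hold letters that match a motif bound by NF-kB, a transcription factor of inflammatory activation. The stretch from 110 to 51 bases before the start site is given in RefSeq sequence on the plus strand of GRCm38.p6, with matches to the motif GGG, any 2 bases and TTTCC, on either strand, in capitals. It lies at chr5:90891135-90891194 for Cxcl1, chr5:90903789-90903848 for Cxcl2 and chr5:90785991-90786050 for Cxcl3.
Cxcl1: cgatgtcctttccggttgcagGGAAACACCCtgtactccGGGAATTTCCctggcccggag
Cxcl2: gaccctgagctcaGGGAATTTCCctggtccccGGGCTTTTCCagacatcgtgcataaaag
Cxcl3: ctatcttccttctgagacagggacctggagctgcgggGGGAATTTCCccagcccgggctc
Cxcl1 held 2 matches, of which 1 is on the other strand, Cxcl2 held 2 and Cxcl3 held 1. Of 27025 promoters searched over the 250 bases before the start site, 1.40% held the motif, and the share was 1.14% of 1836 promoters of genes called higher and 2.09% of 1146 of genes called lower. A match describes these letters only.

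Among other ligands, Cxcl10, an interferon-inducible chemokine, was 50.4, 96.1 and 67.4 in MI and 14.1 and 2.60 in Blood (log2 fold change 3.04 ± 0.55, adjusted p = 0.00233). Cxcl16 was 92.4, 229.7 and 238 in MI and 35.3 and 20.1 in Blood (log2 fold change 2.60 ± 0.48, adjusted p = 0.00258). Ccl2, which draws monocytes, was 261, 679.6 and 559 in MI and 162 and 76.7 in Blood, and the calls of Ccl2 and Ccl7 were lost without Blood 22. Of receptors, Cx3cr1, the fractalkine receptor of monocytes and macrophages, was 67.2, 148 and 164 in MI and 0 and 7.80 in Blood (log2 fold change 4.76 ± 0.67, adjusted p = 0.000624), and each MI library was above both Blood libraries. Lower genes were Cxcr2, the eosinophil receptor Ccr3, Ccl24, Ccl6 and Ccr1, of which Ccr1 lost its call without MI 13, without Blood 21 and without Blood 22. Ccl6 was 614, 1655 and 1819 in MI and 8761 and 6839 in Blood (log2 fold change -2.65 ± 0.54, adjusted p = 0.00429), and its log2 fold change under the pan-leukocyte scaling was -0.93 and no longer called.

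Genes reported for neutrophils activated in tissue were mostly not called: of 24 tested, 5 were higher and 1 lower, with a median of 0.70. Il1a, which encodes interleukin-1 alpha, was 16.8, 64.4 and 84.4 in MI and 0 and 2.60 in Blood (log2 fold change 3.97 ± 0.64, adjusted p = 0.00128), and it kept its call, as did Cxcl3, without MI 13, Blood 21 or Blood 22. Tnf was 303, 473 and 620.2 in MI and 177 and 38.3 in Blood (log2 fold change 2.40 ± 0.65, adjusted p = 0.0165). Ccrl2, a chemerin-binding receptor, was 219, 606 and 647 in MI and 106 and 52.0 in Blood (log2 fold change 2.54 ± 0.71, adjusted p = 0.0184). Icam1, an adhesion molecule induced by cytokines, was 151, 348 and 506 in MI and 106 and 58.5 in Blood (log2 fold change 1.90 ± 0.54, adjusted p = 0.0202). For these 3 genes MI lay above Blood in every library, and each call was lost without Blood 22. Ltc4s, leukotriene C4 synthase, was lower, at 8.40, 23.1 and 32.9 in MI and 184 and 229 in Blood (log2 fold change -3.31 ± 0.46, adjusted p = 0.000554). Il1b was 1546, 2749 and 2951 in MI and 6811 and 4563 in Blood and Nlrp3, the inflammasome sensor, was 496, 626 and 865 in MI and 629 and 550.3 in Blood, and neither was called. Siglecf, a lectin reported on neutrophils of the injured heart, was 75.6, 102 and 109 in MI and 268 and 121 in Blood, below both Blood libraries in each MI library but not called (log2 fold change -0.92 ± 0.53, adjusted p = 0.195).

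Of 19 targets and regulators of NF-kB, 3 were higher and 2 lower (median 0.04). The 3 higher genes were feedback regulators or adaptors of the pathway. Tnfaip3, which encodes the ubiquitin-editing enzyme A20, was 319, 798 and 1257 in MI and 91.8 and 55.9 in Blood (log2 fold change 3.22 ± 0.66, adjusted p = 0.00466). Traf1 was 75.6, 95.2 and 111 in MI and 0 and 16.2 in Blood (log2 fold change 3.97 ± 0.69, adjusted p = 0.00191). Nfkbie, the inhibitor IkB-epsilon, was 92.4, 119 and 176 in MI and 42.4 and 29.2 in Blood (log2 fold change 1.77 ± 0.34, adjusted p = 0.00330). All 3 kept their calls by edgeR and without each of the 3 libraries that stood apart. The lower genes Tnfaip2 and Birc2 lost theirs without Blood 21, and Birc2 also without MI 13.

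Interferon-stimulated genes were lower in 11 of 27 tested cases and higher in 0, with a median of -1.15. Slfn4, a schlafen protein of myeloid cells, was 1084, 2454 and 1533 in MI and 18017 and 7404 in Blood (log2 fold change -2.85 ± 0.62, adjusted p = 0.00606). Oas3, an oligoadenylate synthetase, was 75.6, 387 and 186 in MI and 1053 and 1078 in Blood (log2 fold change -2.58 ± 0.51, adjusted p = 0.00389). Gbp2, a guanylate-binding protein, was 33.6, 132 and 100.4 in MI and 289.7 and 486 in Blood (log2 fold change -2.26 ± 0.48, adjusted p = 0.00517). Isg15 was 25.2, 50.9 and 34.5 in MI and 35.3 and 14.3 in Blood and Ifit3 was 143, 323 and 162 in MI and 608 and 281 in Blood, and neither was called. Without Blood 21 the list had 5 lower and 1 higher gene. Under the pan-leukocyte scaling it had 0 lower and 7 higher genes, and with the shift of 1.72 its median came to 0.58, which is still below the median of 1.87 for all genes.

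Monocyte genes gave 2 higher and 1 lower of 12 and macrophage genes 6 higher and 1 lower of 25, with medians of 0.56 and -0.06. Spp1, which encodes osteopontin, was 2488, 5333 and 5302 in MI and 657 and 455 in Blood (log2 fold change 2.91 ± 0.47, adjusted p = 0.00131). Gpnmb, a glycoprotein of lipid-laden macrophages, was 176, 428 and 501 in MI and 49.5 and 48.7 in Blood (log2 fold change 2.73 ± 0.52, adjusted p = 0.00326). Hmox1, heme oxygenase 1, was 387, 1164 and 1002 in MI and 155 and 101 in Blood (log2 fold change 2.59 ± 0.54, adjusted p = 0.00472). MI lay above Blood in every library for these genes. The defining markers Adgre1 and Csf1r were 118, 270.1 and 285 in MI and 198 and 608 in Blood and 387, 557 and 648 in MI and 480.4 and 942 in Blood, and neither was called. Under the pan-leukocyte scaling, which called 69.3% of tested genes higher, both were called higher. The complement gene C1qa was 336, 1176 and 1247 in MI and 2438 and 1218 in Blood, so macrophage transcripts were present in both groups and C1qa, C1qb and C1qc were not called. The macrophage list summed to 11724, 29542 and 28633 in MI and 32925 and 23116 in Blood.

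Folr2, the folate receptor beta of resident macrophages, was the 1 lower gene of the 25 on the macrophage list, at 8.40, 85.5 and 117 in MI and 367 and 478 in Blood (log2 fold change -3.14 ± 0.83, adjusted p = 0.0145), a call lost without Blood 22. Lyve1, carried on the endothelial list and also known from resident macrophages, was 16.8, 79.8 and 107 in MI and 276 and 336 in Blood (log2 fold change -2.47 ± 0.68, adjusted p = 0.0170), a call lost without Blood 21 or without Blood 22 and under the pan-leukocyte scaling. On the same list 6 of the 25 genes were higher, and C1qa, C1qb and C1qc were not called. Fcna (ficolin A), Slc40a1 (the iron exporter ferroportin) and Cd5l, also known from resident macrophages, were picked after their values were seen. They are given as single genes and not as a group, and do not show whether resident macrophages differed between the groups. Fcna was 25.2, 24 and 46.3 in MI and 289.7 and 309 in Blood (log2 fold change -3.21 ± 0.55, adjusted p = 0.00180). Slc40a1 was 67.2, 199 and 199.7 in MI and 1152 and 1455 in Blood (log2 fold change -3.20 ± 0.51, adjusted p = 0.00112). Cd5l was 8.40, 188 and 219.8 in MI and 1017 and 778 in Blood (log2 fold change -3.55 ± 1.03, adjusted p = 0.0221), and this call was lost without Blood 21 or without Blood 22. Each of the 3 stayed lower under the pan-leukocyte scaling.

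Few genes of antigen presentation and of lymphocytes were called. Of 9 tested antigen presentation genes 1 was higher and 0 lower (median 0.36). H2-Aa was 319, 318 and 430.3 in MI and 297 and 396 in Blood and Cd74 was 529, 527 and 620.2 in MI and 339 and 790.1 in Blood, with overlapping groups. Zbtb46, a transcription factor of dendritic cells and endothelium, was 84.0, 51.9 and 49.9 in MI and 7.07 and 4.55 in Blood (log2 fold change 3.01 ± 0.47, adjusted p = 0.00102). Only 7 of 24 T and NK cell genes passed the filter, with 1 higher, Il7r, whose call was lost by edgeR, without MI 13 and without Blood 21. B cell genes were lower in 2 of 12 cases. Ighm was 16.8, 83.6 and 50.4 in MI and 212 and 347 in Blood (log2 fold change -2.64 ± 0.57, adjusted p = 0.00557), while Ms4a1, which encodes CD20, was 42.0, 10.6 and 9.26 in MI and 14.1 and 69.5 in Blood and was not called. edgeR called 7 of the 12 lower, and the list summed to 244, 329.7 and 251 in MI and 558 and 1616 in Blood, highest in Blood 22. Of 3 tested genes of eosinophils, basophils and mast cells, Ccr3 alone was called, and lower.

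Genes of resolution and of the uptake of dying cells split into 3 higher and 4 lower of 19 (median 0.38). The lower genes included the start of the leukotriene and lipoxin pathway. Alox5ap, the 5-lipoxygenase activating protein, was 176, 618 and 559 in MI and 2183 and 2850.3 in Blood (log2 fold change -2.66 ± 0.51, adjusted p = 0.00322). Alox5 was 75.6, 126 and 115 in MI and 431 and 864 in Blood (log2 fold change -2.54 ± 0.48, adjusted p = 0.00285). Anxa1, which encodes annexin A1, was 101, 295 and 261 in MI and 1095 and 4173 in Blood (log2 fold change -3.42 ± 0.58, adjusted p = 0.00174). Blood lay above MI in every library for all 3. Among the higher genes, Tgm2, a transglutaminase of macrophages and endothelium, was 1109, 1082 and 1225 in MI and 353 and 138 in Blood (log2 fold change 2.35 ± 0.40, adjusted p = 0.00184). Il10 was 42.0, 11.5 and 24.2 in MI and 0 and 0.650 in Blood (log2 fold change 3.44 ± 0.61, adjusted p = 0.00214), with 5, 12 and 47 reads in MI and 0 and 1 in Blood. Mertk and Axl, receptors for dying cells, had log2 fold changes of 0.55 and 1.17 and were not called.

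Over the leukocyte lists, 17 of the 26 higher genes kept the call by edgeR and without MI 13, Blood 21 or Blood 22 in turn. Over all genes, 1271 of the 2452 higher genes did. The 17 leukocyte genes included Cxcl1, Cxcl3, Cxcl10, Cxcl16, Cx3cr1, Il1a, Il10, Tnfaip3, Traf1, Nfkbie, Spp1, Gpnmb, Hmox1, Klf4, Tgm2 and Zbtb46. Heart endothelium and fibroblasts can also express several of these, among them Cxcl1, Klf4, Tgm2 and Zbtb46, and which cells the reads came from was not tested.

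Among 112 tested genes of general cell states, 30 (26.8%) were higher and 11 (9.82%) lower, against 21.2% and 13.5% of all tested genes. Of 23 immediate-early and heat shock genes, 7 were higher and 2 lower (median 0.24). Hspa1a, an inducible Hsp70, was 345, 635 and 1128 in MI and 14.1 and 12.3 in Blood (log2 fold change 5.37 ± 0.61, adjusted p = 0.000161). Its near-identical neighbour Hspa1b was 420.2, 894 and 1392 in MI and 28.3 and 14.9 in Blood, and reads may be split between the 2 copies. Hsph1, the Hsp110 chaperone, was 84.0, 236 and 446 in MI and 21.2 and 20.1 in Blood (log2 fold change 3.21 ± 0.56, adjusted p = 0.00191). Fosb was 572, 234 and 345 in MI and 70.7 and 23.4 in Blood (log2 fold change 3.07 ± 0.51, adjusted p = 0.00147), yet Fos and Jun, with log2 fold changes of -0.03 and 0.24, were not called. Klf2, a transcription factor of quiescent leukocytes and endothelium, was lower, at 311, 379.7 and 526 in MI and 2261 and 1504 in Blood (log2 fold change -2.21 ± 0.41, adjusted p = 0.00268). These MI samples had been digested at 37 °C and the Blood samples are not described as digested, and the part of that step cannot be told apart from the tissue.

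Glycolysis and hypoxia genes gave 5 higher and 3 lower of 27 (median -0.45). Slc2a3, the glucose transporter GLUT3, was 58.8, 159.6 and 170.4 in MI and 3561 and 2184 in Blood (log2 fold change -4.55 ± 0.60, adjusted p = 0.00037), a wider gap than that of Ly6g, and it stayed lower under the pan-leukocyte scaling (-2.83). Pfkfb4 was 101, 178 and 169 in MI and 678 and 991 in Blood (log2 fold change -2.49 ± 0.41, adjusted p = 0.00143). Hilpda, a lipid-droplet protein induced by hypoxia, was higher, at 92.4, 112 and 317 in MI and 7.07 and 8.45 in Blood (log2 fold change 3.95 ± 0.51, adjusted p = 0.00033). Vegfa was 101, 164 and 174 in MI and 42.4 and 38.3 in Blood (log2 fold change 1.77 ± 0.33, adjusted p = 0.00259) and Egln1, an oxygen-sensing hydroxylase, was 311, 249.9 and 186 in MI and 35.3 and 85.8 in Blood (log2 fold change 2.10 ± 0.37, adjusted p = 0.00209). Glycolytic enzymes such as Ldha and Gapdh had log2 fold changes of -0.45 and -0.48 and were not called.

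Nuclear-encoded respiratory chain genes were higher in 7 and lower in 4 of 28 (median 0.51). Uqcrfs1, the Rieske protein of complex III, was 345, 298 and 248 in MI and 70.7 and 101 in Blood (log2 fold change 1.77 ± 0.28, adjusted p = 0.00119). Sdha was 134, 159.6 and 124 in MI and 35.3 and 64.3 in Blood and was higher, whereas its partner Sdhb, 0, 9.61 and 10.8 in MI and 21.2 and 108 in Blood, was lower, a call lost without Blood 22. Without Blood 21 the list had 4 higher and 10 lower genes, and without Blood 22 it had 14 and 0, so its direction turned with the Blood library left out. Cell cycle genes were higher in 9 and lower in 0 of 20 (median 1.18). Mki67 was 193, 235 and 402 in MI and 35.3 and 35.1 in Blood (log2 fold change 2.83 ± 0.40, adjusted p = 0.000622), and Rrm2, a subunit of ribonucleotide reductase, was 42.0, 17.3 and 22.1 in MI and 0 and 5.85 in Blood. Without Blood 21 only 3 of the 20 were higher. Of 14 genes of cell survival and death, Bcl2l1, which encodes Bcl-xL, was higher at 168, 89.4 and 127 in MI and 14.1 and 30.5 in Blood (log2 fold change 2.46 ± 0.38, adjusted p = 0.00103), as was Bcl2a1d, which shares reads with close copies. Bid and Bbc3 were lower, with the call of Bbc3 lost without MI 13 or without Blood 21, and Mcl1, at 1883, 4048 and 4162 in MI and 8535 and 6678 in Blood, was not called.

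Platelet and erythroid genes were lower in MI, and many of these calls were lost when 1 library was left out. Of the 15 lower genes over these lists, the platelet integrin Itga2b, the platelet tubulin Tubb1 and the globin Hba-a1 kept the call by edgeR and without MI 13, Blood 21 or Blood 22 in turn. Over all genes, 638 of the 1556 lower genes did. Of 14 platelet genes 12 were lower and 0 higher (median -4.33). Ppbp, a platelet chemokine, was 109, 127 and 75.1 in MI and 15063 and 283 in Blood, far higher in Blood 21 than in Blood 22, and its call was lost without Blood 21, when 2 of the 14 were lower and the median was -1.48. Cd226, a receptor of platelets and lymphocytes, was 16.8, 20.2 and 11.3 in MI and 4027 and 87.7 in Blood (log2 fold change -5.08 ± 1.14, adjusted p = 0.00699). Of 9 erythroid genes 3 were lower, with Hba-a1, an alpha globin, at 58.8, 57.7 and 35.0 in MI and 276 and 3062 in Blood (log2 fold change -4.17 ± 0.78, adjusted p = 0.00279). edgeR called all 9 lower, while without Blood 22 limma called 1. Red cells were lysed in the heart preparation, and the part of that step cannot be told apart from the tissue.

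**Figure D4:**
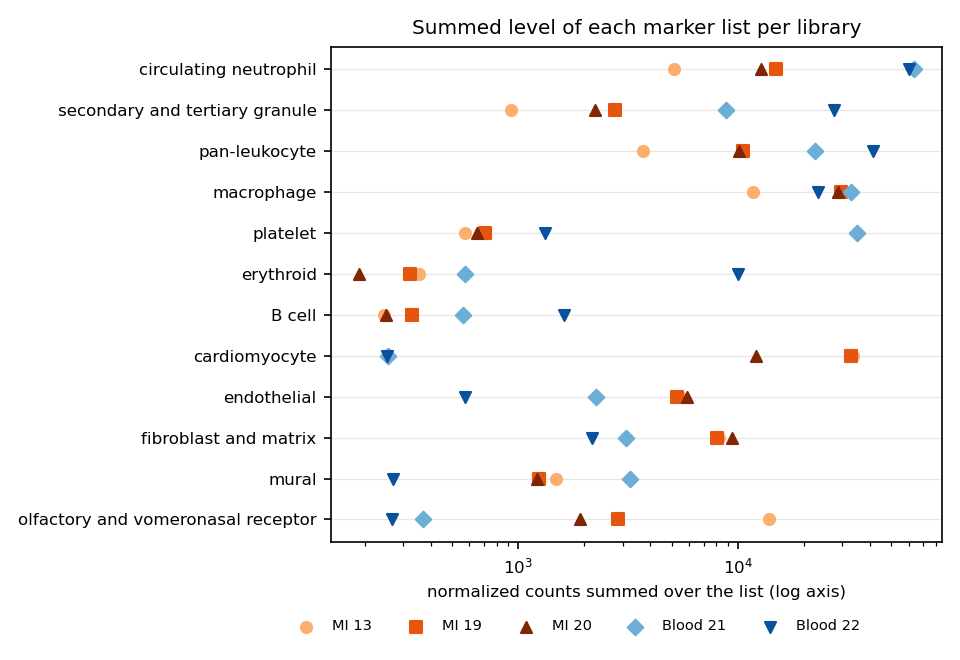
Normalized counts summed over each gene list on a log axis, 1 symbol per library, for 3 MI (orange and brown) and 2 Blood libraries (blue). Cardiomyocyte, endothelial and fibroblast sums were higher in each MI library than in either Blood library, platelet genes stood out in Blood 21, erythroid and B cell genes in Blood 22 and olfactory and vomeronasal receptor genes in MI 13.

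Heart-cell genes were mostly higher in MI, with 80 of 103 tested (77.7%) called higher and 4 lower, against 21.2% of all tested genes called higher. All 30 tested cardiomyocyte genes were higher in MI, with a median of 6.35, and all 30 stayed higher by edgeR and without MI 13, Blood 21 or Blood 22. Tnnt2, cardiac troponin T, was 277, 299 and 104 in MI and 0 and 0 in Blood (log2 fold change 6.70 ± 0.59, adjusted p = 3.1e-05), at least 19.6-fold higher in MI with Blood set to 3 reads in each library. Tnni3, cardiac troponin I, was 134, 179 and 53.0 in MI and 0 and 0.650 in Blood (log2 fold change 5.59 ± 0.56, adjusted p = 7.09e-05). MI 20, the deepest of the 3, held less of both than the others. Mybpc3 had the smallest difference of the list, at 277, 421 and 116 in MI and 35.3 and 42.9 in Blood (log2 fold change 2.56 ± 0.55, adjusted p = 0.00585), and was detected in both Blood libraries. Dsp, the desmosomal protein desmoplakin and on no list, was 572, 710.3 and 312 in MI and 0 and 1.95 in Blood (log2 fold change 7.49 ± 0.52, adjusted p = 6.74e-06).

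Endothelial genes were higher in 21 and lower in 1 of 27, with a median of 4.74. Cdh5, the VE-cadherin of endothelial junctions, was 513, 478 and 510.1 in MI and 7.07 and 6.5 in Blood (log2 fold change 5.84 ± 0.34, adjusted p = 3.45e-06). Kdr, the receptor VEGFR2, was 244, 348 and 354 in MI and 0 and 1.95 in Blood (log2 fold change 6.80 ± 0.43, adjusted p = 5.43e-06). Ptprb, the phosphatase VE-PTP, was 496, 421 and 540.4 in MI and 0 and 2.60 in Blood (log2 fold change 7.32 ± 0.43, adjusted p = 3.45e-06). The 3 MI libraries agreed closely on these genes, MI 13 included. Egfl7 was 319, 182 and 230.1 in MI and 0 and 0.650 in Blood and Podxl, podocalyxin, was 622, 476 and 483 in MI and 21.2 and 2.60 in Blood, both higher. Timp4, an inhibitor of matrix proteases abundant in heart, was 101, 112 and 158 in MI and 0 and 0 in Blood and at least 10.7-fold higher. Genes that platelets share with endothelium behaved otherwise. Vwf was 75.6, 81.7 and 46.3 in MI and 911 and 57.2 in Blood and Pecam1 was 429, 462 and 521 in MI and 586 and 50.7 in Blood, high in Blood 21 alone among the Blood libraries, and neither was called.

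Fibroblast and matrix genes were higher in 22 of 30 tested cases and lower in 0, with a median of 2.17. Ccn2, connective tissue growth factor, was 193, 87.5 and 99.8 in MI and 0 and 0.650 in Blood (log2 fold change 5.72 ± 0.50, adjusted p = 3.1e-05). Postn, periostin of activated fibroblasts, was 75.6, 90.4 and 85.4 in MI and 0 and 9.75 in Blood (log2 fold change 4.14 ± 0.67, adjusted p = 0.00129). Col4a1, a collagen of basement membranes, was 572, 441 and 552 in MI and 14.1 and 18.8 in Blood (log2 fold change 4.83 ± 0.38, adjusted p = 1.35e-05). Each stood above Blood in every MI library. The main collagens differed less. Col1a1 was 168, 354 and 254 in MI and 134 and 23.4 in Blood and was higher, a call lost without Blood 22, as was that of Dcn. Col3a1 was 294, 417 and 475 in MI and 396 and 309 in Blood and Pdgfra, a surface receptor of fibroblasts, was 50.4, 49.0 and 54.6 in MI and 56.5 and 6.5 in Blood, and neither was called. Timp3 was 546, 561 and 677 in MI and 49.5 and 45.5 in Blood (log2 fold change 3.59 ± 0.45, adjusted p = 0.000289), and Fn1, fibronectin, was 1949.8, 1722 and 2528 in MI and 1116 and 1063 in Blood and was not called. Without Blood 22 the list had 16 higher genes in place of 22.

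Mural genes, of pericytes and smooth muscle, were higher in 7 and lower in 1 of 11 (median 3.82). Pdgfrb, the receptor of pericytes, was 42.0, 59.6 and 51.0 in MI and 0 and 0.650 in Blood (log2 fold change 4.51 ± 0.48, adjusted p = 0.000109). Abcc9, a subunit of a potassium channel of pericytes, was 101, 97.1 and 45.3 in MI and 0 and 0 in Blood, at least 7.01-fold higher, and Cspg4, the proteoglycan NG2, was 101, 75.9 and 44.3 in MI and 0 and 0 in Blood, at least 6.37-fold higher. Myl9, a myosin light chain of smooth muscle and platelets, was lower at 33.6, 28.8 and 41.7 in MI and 3080.5 and 53.9 in Blood, a call lost without MI 13 or without Blood 21. Of 5 tested Schwann cell, mesothelial and adipose genes, Upk1b and Krt19, markers of mesothelium, were lower, at 8.40, 2.88 and 3.60 in MI and 42.4 and 22.7 in Blood and 8.40, 2.88 and 7.21 in MI and 70.7 and 14.3 in Blood. Both calls were lost without Blood 21, in which Upk1b rested on 6 reads. Of the 80 higher heart-cell genes, 71 kept the call by edgeR and without MI 13, Blood 21 or Blood 22 in turn, and of the 4 lower ones 0 did. Over all genes these counts were 1271 of 2452 higher and 638 of 1556 lower genes.

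Several called genes stood on no list. Among those with the largest fall that stayed low under the pan-leukocyte scaling, Nfe2, a transcription factor of megakaryocytes, erythroid cells and neutrophils, was 25.2, 56.7 and 37.6 in MI and 841 and 544 in Blood (log2 fold change -4.09 ± 0.63, adjusted p = 0.000963). Ceacam10 was 0, 5.77 and 4.63 in MI and 42.4 and 160.5 in Blood (log2 fold change -4.18 ± 0.76, adjusted p = 0.00250). Blood 21 and Blood 22 were both above all MI libraries for this pair of genes, and their calls held without either. Rgs18 and Alox12, both known from platelets, were also among the 10 named by this rule. The genes with the largest rise on no list were mostly known from heart muscle and vessels. Epas1, the hypoxia-inducible factor HIF-2 alpha abundant in endothelium, was 479, 399.9 and 481 in MI and 0 and 4.55 in Blood (log2 fold change 6.97 ± 0.50, adjusted p = 8.71e-06). Ly6c1, a surface protein of endothelium, was 294, 321 and 313 in MI and 0 and 3.25 in Blood (log2 fold change 6.59 ± 0.50, adjusted p = 1.21e-05). Sparcl1 was 185, 220.1 and 215 in MI and 0 and 0 in Blood, at least 17.8-fold higher. By biotype, 2327 of 10637 tested coding genes were higher and 1402 lower, while of 546 long noncoding RNAs 80 were higher and 98 lower (median -0.33).

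The groups of mice given MSC, MI + MSC (n = 3) and Blood + MSC (n = 2), share no library with MI and Blood and give the same contrast of tissues. Both contrasts came from the same limma fit, with 1 estimate of spread per gene and 1 gene filter. Their calls are therefore not independent. There 951 genes were higher and 676 lower, or 8.23% and 5.85% of those tested. Of the 2452 genes higher in MI, 817 (33.3%) were also called higher with MSC and 1 lower, and these 817 were 85.9% of the genes called higher with MSC. Of the 1556 lower genes, 523 (33.6%) were called lower and 0 higher, which is 77.4% of those called lower with MSC. The sign was the same for 2368 and 1504 genes. Side by side, Ly6g had log2 fold changes of -4.02 without and -2.37 with MSC, Cxcl1 of 3.73 and 3.79, Spp1 of 2.91 and 4.33 and Cdh5 of 5.84 and 4.97. The granule list had medians of -3.18 and -2.43, the interferon list of -1.15 and 0.08 and the tissue-activated neutrophil list of 0.70 and 2.18. The interaction of tissue and MSC was tested in limma, and 0 genes passed an adjusted p of 0.05, with 838 at an unadjusted p under 0.05 and a lowest adjusted p of 0.627, so a difference between the 2 contrasts was not detected for any gene.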

How the data were processed

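Stranded paired-end libraries were made after removal of ribosomal RNA. Per the paper's methods, the authors trimmed reads with Trimmomatic, removed duplicates with Picard, mapped to GRCm39 with STAR, counted per gene and strand with featureCounts and left out mitochondrial reads. The deposited signal values are these counts after division by size factors from DESeq2. Values of 28185 genes came out as whole reads once divided by the value of 1 read (100% within 0.1 read), so the reads were recovered, 148594 to 2957308 in the 5 libraries compared. Removal of duplicates before counting lowers the values of the most abundant genes, and intervals or floors cover counting error alone. The GENCODE annotation of GRCm39 held 27906 of the identifiers.

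MI and Blood were compared with limma 3.58.1 with an intensity trend in 1 model over all 10 libraries, so that the spread of the MSC groups also entered, on log2(normalized count + 2) for genes with a mean of at least 10, with Benjamini-Hochberg adjustment over the 11549 genes tested. P-values measure the spread between these libraries. On the recovered reads, edgeR 4.0.16 called 2044 genes higher and 2060 lower. DESeq2 1.42.0 was a further alternative. The fits were first tested on simulated reads, run in R 4.3.3, and figures were drawn with matplotlib 3.10.9 in Python 3.11.15 (pandas 2.3.3, numpy 2.4.6). The leukocyte, heart-cell and other lists were written by hand, and members, lists and alternatives were chosen with earlier results of these data known. Named are the defining genes of each list, its 3 most changed called genes in each direction, the 10 most changed called genes in each direction over all genes (rises outside the heart lists) and on no list, and any other list member with its value and call. Fcna, Slc40a1 and Cd5l were chosen after their values were seen. A least fold is given only where a group had no read, against 3 reads in each of its libraries. Promoters of RefSeq genes came from GRCm38.p6 and were used for their sequence alone. Some genes are not reported here.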

Additional observations from a re-analysis of the deposited data

How the results depend on the processing

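No paired analysis was possible because the labels of MI and Blood share no library number. Each named gene was compared between the main fit and each alternative setting, which gave 3351 pairs of gene and setting. In 3040 pairs the gene stayed on its side of the threshold, 57 of these with a change of sign while not called. In 236 pairs the call was lost, in 65 it was gained and in 10 the sign changed while the gene was called in at least 1 of the settings compared. With the 5 libraries alone, limma called 1091 genes higher and 609 lower, with 49 leukocyte genes lower and 0 heart-cell genes lower. Array weights gave 1250 and 637, with 35 leukocyte and 2 heart-cell genes lower. DESeq2 on the 5 libraries called 1353 higher, and limma-voom with quality weights called 936 higher, with a share of 36.1% of calls higher, against 49.8% by edgeR. A mean minimum of 20 gave 1606 higher genes and 2 lower heart-cell genes. Library size scaling gave 3778 and 812, with 44 leukocyte genes higher and 2 heart-cell genes lower. TMM scaling gave 1599 and 889, with 17 leukocyte genes higher. Pan-leukocyte scaling gave 8005 and 130, with 113 leukocyte genes higher, 30 lower and 0 heart-cell genes lower. It adds 1.72 to every log2 fold change, and by this shift alone that of Tnfaip2 came to 0.058, Birc2 to 0.18, Ncf4 to 0.10, Adgre1 to 0.99, Csf1r to 1.35, Fech to 0.20, Jund to 0.23, Bbc3 to 0.091, Bid to 0.22 and Ifit2 to 1.47, none of which it left as a lower call. Of these, Adgre1 and Csf1r were not called with the deposited scaling and were called higher with the pan-leukocyte scaling. With each MI or Blood library left out in turn, 1808 to 2759 genes were higher and 1137 to 1616 lower, with 23 to 34 leukocyte genes higher, 56 to 85 lower, 73 to 84 heart-cell genes higher and 0 to 5 lower. Without both MI 13 and Blood 21, 2 heart-cell genes were lower, as by edgeR without Blood 21, an alternative chosen after seeing the data. The causes of the other differences were not tested. Depth limits low genes in MI 13 and Blood 21, where 3 reads are 25.2 and 21.2 normalized counts, and 2 Blood libraries limit the estimate of spread.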
